A study of Homo sapiens with 9 samples.

Results

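EGR1, FOS, JUN, FOSL1, IER2, DUSP6, SPRY2, SPRY4, ETV4 and ETV5 are genes whose mRNA levels can respond to signaling through the kinase ERK, among other inputs. The activity of ERK itself was not measured in the data used here. These 10 genes, like the further lists below, were chosen with earlier results of these data known. Shares of all genes set beside them are therefore a description. Their Ensembl IDs without version were looked up in the count table of 60648 genes. All 10 genes were found, and all 10 passed the expression filter that left 19473 genes for testing. RNA was measured in 3 lines of HEK293-derived cells, with 3 libraries per line. T-REx cells are the parental human embryonic kidney line without an insert. TC4-2A cells carry a doxycycline (Dox)-inducible insert that yields a circular RNA of the genes SMN1 and SMN2 with exons 2A to 4. TL4-2A cells carry 1 for the same exons as a linear RNA. The paper also detected linear RNA of these exons in TC4-2A cells, as precursor of the circular form. The 2 derived lines therefore do not contrast circular with linear RNA alone. Cells of every line, the parental one included, were seeded 18 h before Dox was added at 0.1 µg/mL, received fresh medium with Dox after 48 h and were collected after 96 h of Dox. The comparison therefore lacks cells without Dox, and every library was made 48 h after the last medium change. The sources used here do not say whether each line was cloned or pooled, nor whether its 3 libraries stem from separate cultures. The count columns named for the circular and the linear RNA were taken as TC4-2A and TL4-2A cells, a match inferred from the RNA each line makes, on which every value of these lines depends. All p-values reflect the spread of these libraries alone, which may be technical.

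Growth factors bound to receptor tyrosine kinases activate RAS, which drives the kinases RAF, MEK and ERK in turn. ERK phosphorylates transcription factors such as ELK1, which act with SRF at the promoters of immediate early genes, a class that is transcribed within minutes without new protein synthesis. Slower outputs of the same pathway include its own inhibitors. DUSP6 encodes a phosphatase that inactivates ERK, and SPRY2 and SPRY4 encode Sprouty proteins that dampen signaling from the receptors to RAS. ETV4 and ETV5 encode ETS transcription factors whose levels follow ERK activity. The repressor capicua (CIC), which ERK inactivates, is known to hold down ETV4, ETV5, DUSP6 and SPRY4. HEK293 cells grow in serum, a source of growth factors.

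Total counts ran from 16561680 to 21491977 per library. NEFL, NEFM, INA, PAX2, LHX1, EPCAM, KRT8 and KRT18, taken as markers of HEK293 cells, were all tested, with a summed level of 609 to 639 CPM (counts scaled by the TMM library sizes) in T-REx, 440.4 to 469 in TC4-2A and 419 to 432 in the TL4-2A line. Of these 8 markers 5 were lower in TC4-2A cells and 5 in the TL4-2A line (adjusted p under 0.05, edgeR), and 0 were higher in either. Of all genes tested, 14.6% were lower and 14.2% higher in TC4-2A cells, and 22.5% lower and 21.9% higher in the TL4-2A line. The summed level of the markers thus moved in the same direction as most of the 10 genes, and its part in their changes was not tested. Of 8 markers of blood, liver, stromal, endothelial and muscle cells (PTPRC, CD3E, ALB, LUM, DCN, PECAM1, HBB and MYH7) none was abundant enough to be tested, 1 was at 0 in every library, and the highest reached 0.313 CPM.

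Promoter sequences, from 250 bases before to 50 bases after an annotated start, were found in RefSeq (build GRCh38.p14) for 7 of the 10 genes. FOSL1, ETV4 and ETV5 had no entry. EGR1, FOS and JUN are printed for matches to the CArG box, the cAMP response core or the JUN and ATF site, followed by DUSP6 and SPRY4, the feedback genes that fell in both derived lines. All are written 5′ to 3′ along the gene, with matches in capitals.
EGR1 (chr5:138465229-138465528, plus strand): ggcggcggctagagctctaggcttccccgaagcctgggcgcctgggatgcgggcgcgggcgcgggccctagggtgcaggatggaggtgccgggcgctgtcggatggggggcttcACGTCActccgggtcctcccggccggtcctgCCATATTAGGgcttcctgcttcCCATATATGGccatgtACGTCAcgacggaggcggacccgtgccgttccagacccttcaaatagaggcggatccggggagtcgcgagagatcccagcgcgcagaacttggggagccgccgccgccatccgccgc
FOS (chr14:75278578-75278877, plus strand): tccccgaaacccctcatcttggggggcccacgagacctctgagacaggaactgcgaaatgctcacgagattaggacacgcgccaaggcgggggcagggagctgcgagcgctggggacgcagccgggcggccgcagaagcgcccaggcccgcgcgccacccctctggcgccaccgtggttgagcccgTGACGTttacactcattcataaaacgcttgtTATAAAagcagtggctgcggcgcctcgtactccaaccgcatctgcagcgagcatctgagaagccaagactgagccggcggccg
JUN (chr1:58783998-58784297, minus strand): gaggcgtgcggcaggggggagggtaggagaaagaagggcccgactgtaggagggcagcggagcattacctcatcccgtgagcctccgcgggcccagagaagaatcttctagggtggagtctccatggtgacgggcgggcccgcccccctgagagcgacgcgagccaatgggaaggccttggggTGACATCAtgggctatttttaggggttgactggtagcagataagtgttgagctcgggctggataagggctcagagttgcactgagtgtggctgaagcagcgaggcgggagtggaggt
DUSP6 (chr12:89352452-89352751, minus strand): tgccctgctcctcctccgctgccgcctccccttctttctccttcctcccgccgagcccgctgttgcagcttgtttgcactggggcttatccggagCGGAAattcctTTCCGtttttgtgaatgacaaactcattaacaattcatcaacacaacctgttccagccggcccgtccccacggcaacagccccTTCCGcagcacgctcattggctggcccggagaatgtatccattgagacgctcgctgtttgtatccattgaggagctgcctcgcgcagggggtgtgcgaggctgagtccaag
SPRY4 (chr5:142324198-142324497, minus strand): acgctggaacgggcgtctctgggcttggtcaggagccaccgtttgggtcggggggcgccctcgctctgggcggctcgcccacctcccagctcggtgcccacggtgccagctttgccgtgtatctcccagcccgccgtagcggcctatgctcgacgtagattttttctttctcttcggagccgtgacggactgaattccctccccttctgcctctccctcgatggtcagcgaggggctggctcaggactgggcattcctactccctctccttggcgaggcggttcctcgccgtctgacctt
Both strands were searched for the CArG box bound by SRF, the cAMP response core (TGACGT), the site of JUN and ATF factors (TGACNTCA), the site known for AP-1 factors (TGANTCA), the core motif of ETS factors (CGGAA), the capicua site (TGAATGNA) and the TATA box (TATAAA). The cAMP core and the JUN and ATF site overlap wherever the latter has CG at its centre. EGR1 holds 2 CArG boxes, from -105 to -96 and from -83 to -74 relative to the start, and 1.29% of 35116 promoters of this length hold any. It also holds the core TGACGT, on the other strand, at -136 to -131 and at -67 to -62. FOS holds TGACGT from -64 to -59, which 7.98% of promoters hold, and TATAAA from -33 to -28, which 11.5% hold. The capitals in JUN mark a JUN and ATF site from -67 to -60, which 7.72% of promoters contain. DUSP6 holds the ETS core at 3 places, and 34.9% of all promoters hold at least 1. IER2, from -69 to -65 and from -26 to -22, and SPRY2, from -208 to -204 and from -141 to -137, hold it at 2 places each. Neither gene passed the test in TC4-2A cells, while in the TL4-2A line IER2 passed as lower and SPRY2 as higher. In the printed window of SPRY4 none of these letters was found. That window belongs to a start inside the annotated gene, whose 5′ end is at 142326455, and the sequence before that end was not searched. The AP-1 letters TGANTCA and the capicua letters TGAATGNA were absent from the 9 windows of the 7 genes, against 7.71% and 3.86% of all promoters. Other spellings of the capicua site were not searched, so its absence from these genes is not shown. These matches describe the letters only. Sequence more than 250 bases before a start was not searched, so a site not found here, in FOS for example, may lie further out.

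In T-REx cells the 10 genes spanned a wide range of levels. Per kilobase of annotated exon, JUN was highest, at 78.6 ± 1.81 RPKM (SD, n = 3), followed by IER2 at 14.0 ± 0.634 RPKM and SPRY2 at 6.75 ± 0.290 RPKM. The lowest was FOS at 0.589 ± 0.0197 RPKM, below SPRY4 at 1.41 ± 0.0610 RPKM. Between these lay EGR1, ETV5, ETV4, DUSP6 and FOSL1, from 4.76 down to 3.19 RPKM. The libraries of ETV4 overlapped those of ETV5 and those of EGR1, and DUSP6 overlapped FOSL1, so these orders are not beyond the spread. JUN, IER2, SPRY2 and EGR1 held the first 4 places, in this order, in all 3 lines, while FOSL1 stood in place 8 in T-REx cells and place 5 in both derived lines, where its libraries overlapped those of the next gene. FOS had 12 to 42 counts per library, against 3637 to 5982 for JUN, so its differences carry by far the widest errors of the list.

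**Figure D1:**
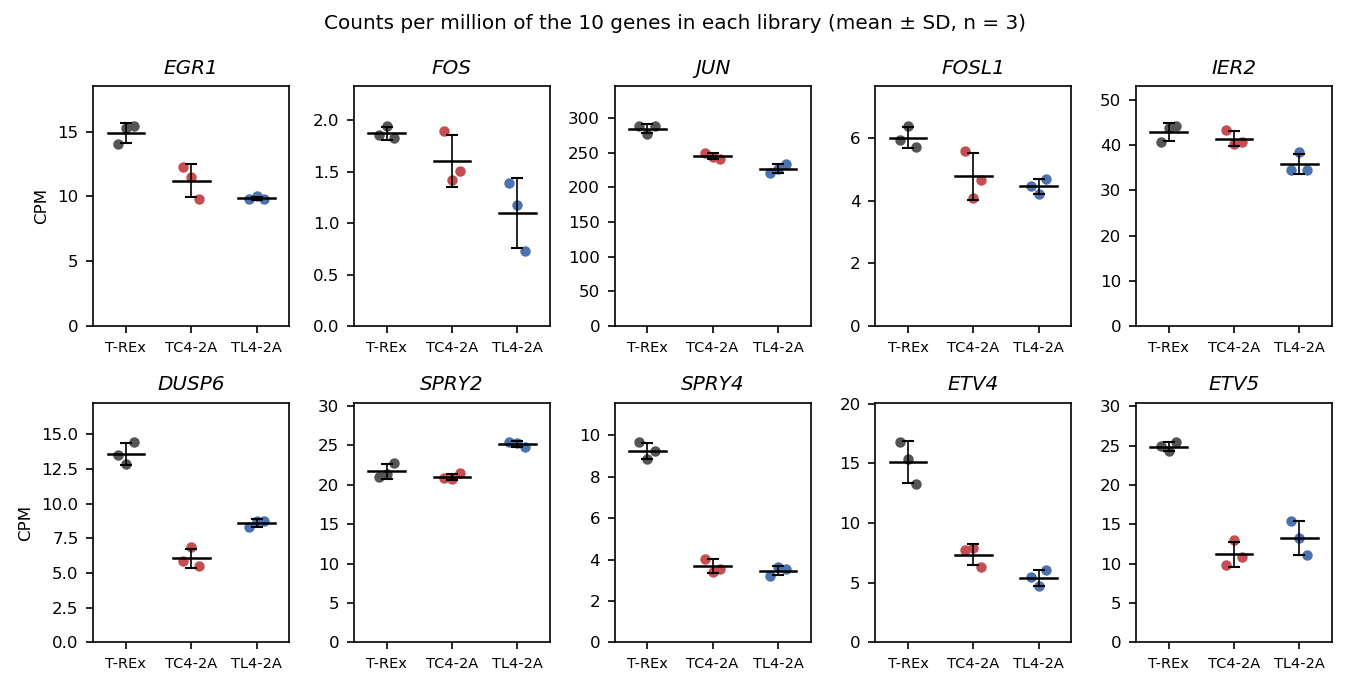
CPM (y axis, from 0) of the 10 genes in the 3 libraries of T-REx (grey), TC4-2A (red) and TL4-2A (blue) cells, with black lines for the mean and bars for the SD (n = 3). DUSP6, SPRY4, ETV4 and ETV5 show every library of both derived lines below every T-REx library, while SPRY2 is highest in the TL4-2A line.

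In TC4-2A cells 7 of the 10 genes were lower than in T-REx cells and 0 were higher (edgeR quasi-likelihood test, Benjamini-Hochberg adjusted p under 0.05). Among all 19473 genes tested 28.8% passed in either direction, 14.2% as higher and 14.6% as lower. SPRY4, DUSP6, ETV5 and ETV4 passed and were lower by more than 2-fold, 4 of the 10 genes, as did 1.69% of all genes. In the TL4-2A line 9 of the 10 were lower and 1, SPRY2, was higher, where 44.3% of all genes passed, 21.9% as higher and 22.5% as lower. ETV4 and SPRY4 were lower by more than 2-fold there, 2 of the 10 genes, against 2.62% of all genes. The median log2 fold change of the 10 genes was -0.37 in TC4-2A and -0.63 in the TL4-2A line, against 0.0037 and -0.00057 over all genes tested. The libraries of the derived line and of T-REx cells did not overlap for 7 genes in TC4-2A and for 10 in the TL4-2A line, as was the case for 40.3% and 51.6% of all genes, with the derived line lower for 20.3% and 26.0%. The T-REx libraries serve in both comparisons. In these bulk libraries, fewer cells that express a gene and less of its RNA per cell cannot be told apart.

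**Figure D2:**
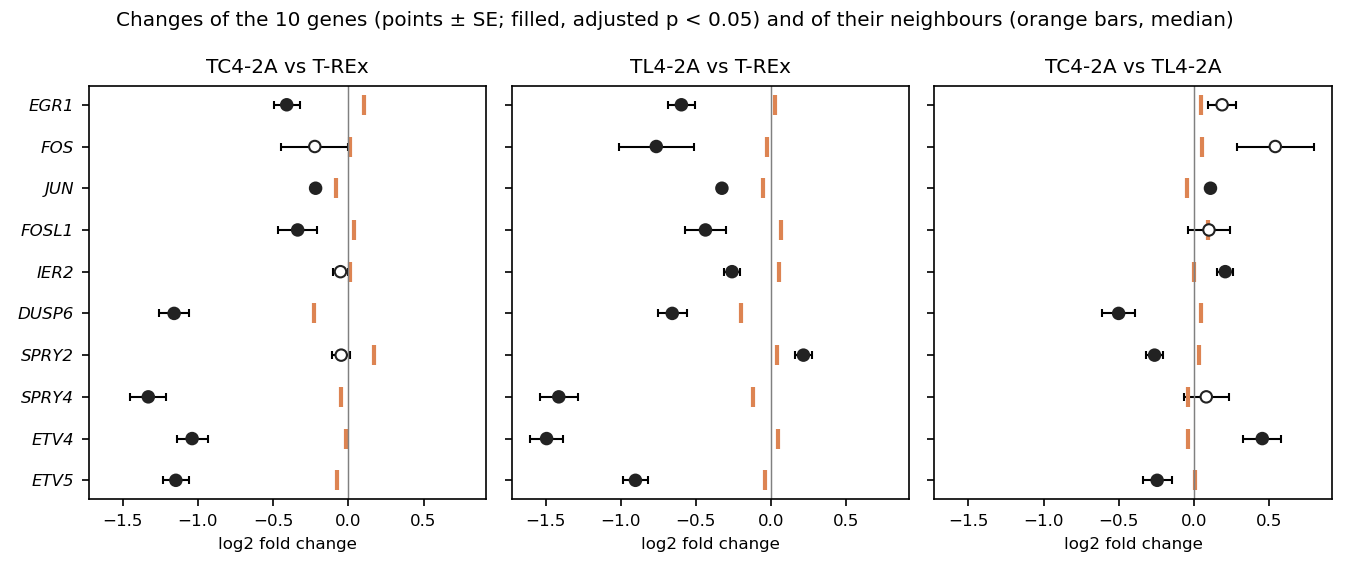
Log2 fold changes (x axis) of the 10 genes in the 3 comparisons, as points with SE bars (filled where the edgeR adjusted p is under 0.05), and the median of the 20 nearest tested genes of each as orange bars. SPRY4, ETV4, ETV5 and DUSP6 lie furthest to the left in TC4-2A cells, and 0 of the 10 points lie to the right of 0 there.

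DUSP6 and SPRY4, a phosphatase and a Sprouty inhibitor of the pathway, fell in both derived lines, whereas SPRY2 did not fall in either. DUSP6 (ENSG00000139318.8, GRCh38 chromosome 12, 89347235 to 89352501) had 13.5, 12.8 and 14.4 CPM in the T-REx libraries, 5.85, 6.84 and 5.48 in TC4-2A and 8.29, 8.72 and 8.78 in the TL4-2A line. The 3 lines did not overlap, with T-REx highest and TC4-2A lowest. The log2 fold change was -1.16 (SE 0.10, edgeR adjusted p = 5.25e-12) in TC4-2A and -0.66 (SE 0.10, edgeR adjusted p = 4.62e-07) in the TL4-2A line, a decrease of 2.23-fold and 1.58-fold. Compared directly, TC4-2A cells had 29.3% less DUSP6 than TL4-2A cells (log2 difference -0.50, edgeR adjusted p = 0.000311).

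SPRY4 (ENSG00000187678.10, chromosome 5, 142310427 to 142326455) had 9.65, 8.85 and 9.23 CPM in T-REx libraries. It had 4.05, 3.42 and 3.55 CPM in TC4-2A and 3.21, 3.64 and 3.54 CPM in TL4-2A libraries. All 6 libraries of the derived lines lay below the 3 of T-REx, and the derived lines overlapped each other. SPRY4 fell 2.51-fold in TC4-2A cells (log2 fold change -1.33, SE 0.12, edgeR adjusted p = 2.31e-11) and 2.66-fold in the TL4-2A line (log2 fold change -1.41, SE 0.13, edgeR adjusted p = 7.64e-12). Only 203 of the 19473 genes tested had a lower log2 fold change in TC4-2A cells, and 217 in the TL4-2A line. The difference between the derived lines was 0.08 on the log2 scale (SE 0.15, edgeR adjusted p = 0.711).

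SPRY2 (ENSG00000136158.12, chromosome 13, 80335976 to 80341126), the other Sprouty gene of the list, went apart. It had 21.0, 21.3 and 22.7 CPM in T-REx and 20.8, 20.7 and 21.4 CPM in TC4-2A libraries, which overlapped. The log2 fold change in TC4-2A cells was -0.05 (SE 0.06, edgeR adjusted p = 0.599). TL4-2A libraries, at 25.4, 25.4 and 24.7 CPM, all lay above the others. SPRY2 rose 1.16-fold over T-REx cells there (log2 fold change 0.21, edgeR adjusted p = 0.00256), and TC4-2A minus TL4-2A cells was -0.26 on the log2 scale (edgeR adjusted p = 0.000411).

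ETV4 and ETV5, the ETS factors, fell in both derived lines. ETV4 (ENSG00000175832.13, chromosome 17, 43527844 to 43579620) had 16.8, 15.4 and 13.3 CPM in T-REx, 7.74, 7.93 and 6.34 in TC4-2A and 5.45, 4.71 and 6.03 in TL4-2A libraries. The 3 lines did not overlap, and TL4-2A was lowest. ETV4 fell 2.05-fold in TC4-2A cells (log2 fold change -1.04, SE 0.10, edgeR adjusted p = 2.18e-10) and 2.81-fold in the TL4-2A line (log2 fold change -1.49, SE 0.11, edgeR adjusted p = 1.07e-13). Between the derived lines the log2 difference was 0.45, higher in TC4-2A cells (edgeR adjusted p = 0.00421).

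ETV5 (ENSG00000244405.8, chromosome 3, 186046314 to 186110318) had 24.9, 24.3 and 25.4 CPM in T-REx libraries. TC4-2A libraries had 9.79, 13.0 and 10.9 CPM, and TL4-2A libraries 15.4, 13.3 and 11.2 CPM. Every T-REx library exceeded every other library, and the derived lines overlapped. The decrease was 2.21-fold in TC4-2A cells (log2 fold change -1.15, SE 0.09, edgeR adjusted p = 1.92e-13) and 1.87-fold in the TL4-2A line (log2 fold change -0.90, SE 0.09, edgeR adjusted p = 4.3e-11). The direct log2 difference, -0.24, passed narrowly (edgeR adjusted p = 0.0463). That call was lost with DESeq2, under which the adjusted p was 0.128, and without TL4-2A replicate 1, where the difference was -0.13 (edgeR adjusted p = 0.379). Without TC4-2A replicate 1 the difference was -0.15 (edgeR adjusted p = 0.28), and without TC4-2A replicate 2 it was -0.37 (edgeR adjusted p = 0.00682). The call held in 4 of 15 alternatives.

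In TC4-2A cells the 5 immediate early genes had smaller log2 fold changes than SPRY4, DUSP6, ETV5 and ETV4, while in the TL4-2A line that of FOS was larger than that of DUSP6, without a test of these differences between genes. EGR1, a zinc finger transcription factor (ENSG00000120738.8, chromosome 5, 138465479 to 138469303), had 14.1, 15.3 and 15.4 CPM in T-REx, 12.3, 11.5 and 9.83 in TC4-2A and 9.81, 10.001 and 9.81 in TL4-2A libraries. T-REx libraries were all above the rest, and the derived lines overlapped. EGR1 fell in TC4-2A cells (log2 fold change -0.41, SE 0.09, edgeR adjusted p = 0.000248) and in the TL4-2A line (log2 fold change -0.60, SE 0.09, edgeR adjusted p = 8.77e-07). The derived lines differed by 0.19 (edgeR adjusted p = 0.12). This difference passed only without TC4-2A replicate 3, where it was 0.27 (edgeR adjusted p = 0.0306), and was 0.12 without TC4-2A replicate 1 (edgeR adjusted p = 0.438).

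JUN and FOS encode subunits of the transcription factor AP-1. JUN (ENSG00000177606.8, chromosome 1, 58776845 to 58784048), the most abundant of the list, had 288, 277 and 289 CPM in T-REx, 249.6, 244 and 241 in TC4-2A and 220.2, 227 and 234 in TL4-2A libraries. The 3 lines did not overlap. JUN fell by 14.0% in TC4-2A cells (log2 fold change -0.22, SE 0.03, edgeR adjusted p = 1.32e-07) and by 20.3% in the TL4-2A line (log2 fold change -0.33, SE 0.03, edgeR adjusted p = 7.18e-12). The derived lines differed by 0.11 (edgeR adjusted p = 0.00281).

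FOS (ENSG00000170345.10, chromosome 14, 75278826 to 75282230) had 1.86, 1.95 and 1.83 CPM in T-REx libraries. TC4-2A libraries, with 1.90, 1.42 and 1.504 CPM, overlapped them, and the log2 fold change of -0.22 (SE 0.22) did not pass (edgeR adjusted p = 0.502). TL4-2A libraries were lower, at 1.39, 1.18 and 0.731 CPM (log2 fold change -0.76, SE 0.25, edgeR adjusted p = 0.012). The call in the TL4-2A line was lost with DESeq2 (adjusted p = 0.0611) and without TL4-2A replicate 3, the lowest library, where the log2 fold change was -0.55 (edgeR adjusted p = 0.0954). TC4-2A and TL4-2A libraries did not overlap, but their difference of 0.54 (SE 0.26) did not pass (edgeR adjusted p = 0.101) and was 0.33 without TL4-2A replicate 3. The change in TC4-2A cells was -0.36 without TC4-2A replicate 1 and -0.14 without TC4-2A replicate 2, and passed in neither case.

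FOSL1 (ENSG00000175592.9, chromosome 11, 65892049 to 65900573), which encodes the FOS-related subunit FRA1, had 5.94, 6.40 and 5.74 CPM in T-REx, 5.60, 4.08 and 4.67 in TC4-2A and 4.48, 4.23 and 4.69 in TL4-2A libraries. No derived library reached the T-REx libraries, although TC4-2A replicate 1 came close. In the TL4-2A line FOSL1 fell (log2 fold change -0.44, SE 0.13, edgeR adjusted p = 0.00786). Against T-REx, TC4-2A cells had a log2 fold change of -0.34 (SE 0.13), just past the threshold (edgeR adjusted p = 0.0459). That call was lost with DESeq2 (adjusted p = 0.17), without an expression filter (edgeR adjusted p = 0.0639), with only the 2 lines compared (edgeR adjusted p = 0.0526) and without any single T-REx library or TC4-2A replicate 2 or 3. The log2 fold changes in these settings stayed between -0.37 and -0.23, and the call held in 7 of 15 alternatives. The derived lines differed by 0.10 (edgeR adjusted p = 0.625), a sign that turned to -0.03 without TC4-2A replicate 1.

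IER2 (ENSG00000160888.7, chromosome 19, 13150411 to 13154911), which encodes a nuclear protein made early after stimulation, had 40.7, 43.9 and 44.3 CPM in T-REx and 43.4, 40.3 and 40.7 CPM in TC4-2A libraries, which overlapped. Its log2 fold change in TC4-2A cells was -0.05 (SE 0.05, edgeR adjusted p = 0.498). TL4-2A libraries, at 34.5, 38.5 and 34.6 CPM, lay below all others. IER2 was lower there by 16.5% (log2 fold change -0.26, SE 0.05, edgeR adjusted p = 0.000123), and TC4-2A exceeded TL4-2A cells by 0.21 (edgeR adjusted p = 0.00207).

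Compared directly, 6 of the 10 genes differed between TC4-2A and TL4-2A cells, 3 in each direction, where 35.4% of all genes differed, 17.6% higher and 17.8% lower in TC4-2A cells. Libraries did not overlap for 6 of the 10 genes and for 44.9% of all genes. JUN, IER2 and ETV4 were higher in TC4-2A cells, and DUSP6, SPRY2 and ETV5 lower. The 5 immediate early genes all had positive differences, from 0.10 to 0.54, of which 2 passed. The order of the derived lines was therefore opposite for DUSP6 and ETV4, although both genes were below T-REx cells in either line.

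Each gene was set beside the 10 tested genes on either side of it on its chromosome. The median log2 fold change of the 20 neighbours ran from -0.23 to 0.17 in TC4-2A and from -0.20 to 0.07 in the TL4-2A line over the 10 genes. DUSP6 lay in the stretch with the lowest medians, -0.23 in TC4-2A and -0.20 in the TL4-2A line, where 9 and 10 of the 20 neighbours were lower and 0 and 1 were higher. Over a span of 7.89 Mb DUSP6 was still the lowest, with 0 of its 20 neighbours below it in either line. Relative to the median of its neighbours its log2 fold change differed by -0.93 in TC4-2A and by -0.46 in the TL4-2A line. What part of the DUSP6 change belongs to its stretch was not tested. The highest median in TC4-2A cells, 0.17, was that around SPRY2, where 7 of the 20 neighbours were higher and 0 lower. SPRY2 differed from this median by -0.22. In the TL4-2A line the median around SPRY2 was 0.04, with 7 neighbours higher and 1 lower, and SPRY2 differed from it by 0.18. The part of this stretch in the values of SPRY2 was not tested either.

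The neighbours of SPRY4 had medians of -0.05 and -0.12, those of ETV4 -0.01 and 0.05, and those of ETV5 -0.07 and -0.04 in TC4-2A and TL4-2A cells. Less the median of its neighbours, the log2 fold change of each of these 3 genes lay between -1.54 and -0.86. In TC4-2A cells 0 of 20 neighbours were as low as the gene for all 3, and in the TL4-2A line 1 neighbour of SPRY4 was lower. That neighbour, SPRY4-AS1, is a long noncoding RNA gene on the opposite strand that overlaps SPRY4 by 1247 bases, with log2 fold changes of -1.18 in TC4-2A (edgeR adjusted p = 0.00305) and -1.87 in the TL4-2A line (edgeR adjusted p = 4.13e-05). It had 3 to 28 counts per library. The antisense gene ENSG00000274021, which overlaps DUSP6 by 1487 bases and had 5 to 19 counts, had a change of -1.09 on the log2 scale in TC4-2A cells (edgeR adjusted p = 0.0316) and -0.15 in the TL4-2A line (edgeR adjusted p = 0.759). Both were picked out after their values were seen. Libraries were strand-specific, but the setting used in counting is not given, so reads of overlapping genes on opposite strands may not be separated. ETV4 is overlapped on the opposite strand along its whole length by the annotated span of DHX8, which had 1802 to 2109 counts, and for ETV4 the same uncertainty holds. ETV5 is overlapped by DGKG over 4651 bases on the same strand, where reads cannot be told apart by strand. DGKG had 13 to 27 counts, against 183 to 525 for ETV5. IER2 is overlapped on the opposite strand by ENSG00000287296, with 0 to 5 counts, and ENSG00000267598, with 0 to 4. EGR1, FOS, JUN, FOSL1 and SPRY2 overlap no other gene of the count table.

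**Figure D3:**
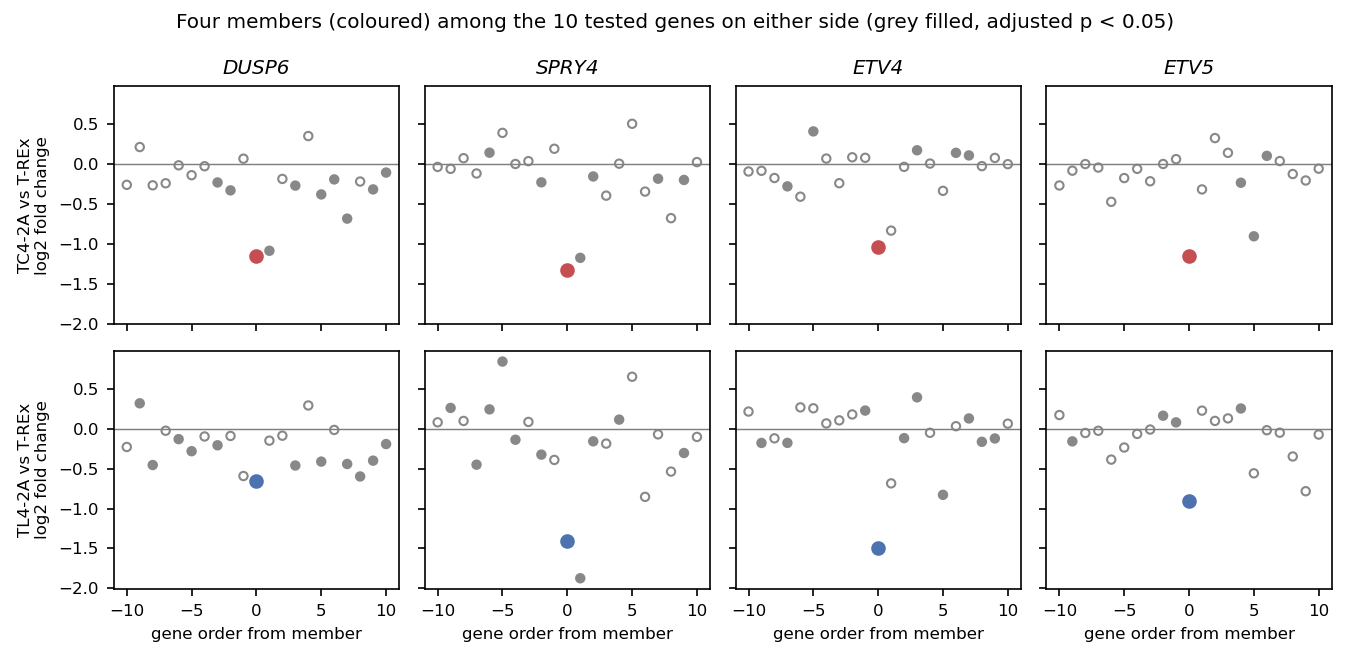
Log2 fold changes (y axis) of DUSP6, SPRY4, ETV4 and ETV5 (coloured) and of the 10 tested genes on either side, in gene order (x axis), for TC4-2A (upper row) and TL4-2A cells (lower row) against T-REx cells. Grey points are filled where the edgeR adjusted p is under 0.05, and each coloured point lies below all grey points except that of SPRY4 in the TL4-2A line, where SPRY4-AS1 is lower.

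The remaining immediate early genes, a list of 29, moved mostly the same way. Of 27 tested, 16 were lower and 1 was higher in TC4-2A cells, and 20 were lower and 2 higher in the TL4-2A line (adjusted p under 0.05, edgeR), where 14.6% and 22.5% of all genes were lower and 14.2% and 21.9% higher. The median log2 fold change of the list was -0.33 in TC4-2A and -0.39 in the TL4-2A line. ATF3, a stress-responsive transcription factor, fell from 41.7 ± 1.52 CPM (SD, n = 3) to a mean of 28.3 ± 0.735 in TC4-2A and 27.6 ± 1.64 in the TL4-2A line (log2 fold changes -0.56 and -0.59, edgeR adjusted p = 1.17e-11 and 2.77e-12). BTG2, an antiproliferative gene, had log2 fold changes of -0.38 and -0.70 (edgeR adjusted p = 1.62e-07 and 1.36e-13). ARC, known from active neurons, fell from 4.49 ± 0.726 to a mean of 2.94 ± 0.172 CPM in TC4-2A cells and to 0.898 ± 0.179 CPM in the TL4-2A line (log2 fold changes -0.61 and -2.32, edgeR adjusted p = 0.00303 and 1.67e-11). MYC, a growth-promoting transcription factor, went opposite ways, with log2 fold changes of 0.27 in TC4-2A and -0.38 in the TL4-2A line (edgeR adjusted p = 2.39e-08 and 7.23e-12).

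Among the close relatives of the 10 genes, the AP-1 genes JUNB, JUND and FOSL2 were lower in both lines. JUNB had log2 fold changes of -0.37 and -0.76 (edgeR adjusted p = 0.00206 and 7.18e-08), JUND of -0.35 and -0.40, and FOSL2 of -0.45 and -0.50, the first value of each pair being that of TC4-2A cells. FOSB passed in the TL4-2A line (log2 fold change -0.55, edgeR adjusted p = 0.0229), while its change in TC4-2A cells was -0.20 on the log2 scale (edgeR adjusted p = 0.461). EGR3, a relative of EGR1, fell as well (log2 fold changes -0.60 and -1.04, edgeR adjusted p = 0.0308 and 0.000402). EGR2, at 0.672 CPM in T-REx cells, did not pass in either line (edgeR adjusted p = 0.568 and 0.354). EGR4 and DUSP2 were not tested.

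Other feedback and output genes of ERK, a list of 14 that were all tested, were lower in 9 and higher in 1 case in TC4-2A cells, and lower in 8 and higher in 3 cases in the TL4-2A line, beside the same shares of all genes. The median log2 fold change was -0.26 in TC4-2A and -0.18 in the TL4-2A line. DUSP5, a nuclear ERK phosphatase, fell from a mean of 15.97 ± 1.147 CPM to 8.45 ± 0.215 in TC4-2A and 8.001 ± 1.002 in the TL4-2A line (log2 fold changes -0.92 and -1.001, edgeR adjusted p = 2.53e-10 and 4.05e-11). The paper describes chromosome stretches rich in genes lowered in TC4-2A cells. Neighbours of this list and of the remaining immediate early genes were not examined. The part of such stretches in the fall of DUSP5 and of the others was not tested. ETV1, which belongs to the same ETS subfamily as ETV4 and ETV5, fell from 22.0 ± 2.07 CPM to 14.2 ± 0.410 and 13.8 ± 0.792 (log2 fold changes -0.63 and -0.67, edgeR adjusted p = 7.47e-09 and 2.28e-09). Of the other Sprouty genes, SPRY1 fell (log2 fold changes -0.28 and -0.39, edgeR adjusted p = 2.13e-05 and 5.32e-08), and SPRY3 had log2 fold changes of -0.33 and -0.17 that did not pass (edgeR adjusted p = 0.0622 and 0.336). Of the other ERK phosphatases, DUSP4 fell in both lines (log2 fold changes -0.39 and -0.80), DUSP7 rose in TC4-2A and fell in the TL4-2A line (0.18 and -0.20), and DUSP9 fell in the TL4-2A line (-0.61, edgeR adjusted p = 0.0012), with 0.26 in TC4-2A cells (edgeR adjusted p = 0.147). The receptor genes EPHA2 and EPHA4 parted in the TL4-2A line, where EPHA2 had a log2 fold change of -1.13 (edgeR adjusted p = 8.22e-20) and EPHA4 of 0.56 (edgeR adjusted p = 3.66e-13). In TC4-2A cells both fell (log2 fold changes -0.44 and -0.14). CCND1, the gene of cyclin D1, had log2 fold changes of 0.03 in TC4-2A cells (edgeR adjusted p = 0.630) and of -0.14 in the TL4-2A line (edgeR adjusted p = 0.00204).

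**Figure D4:**
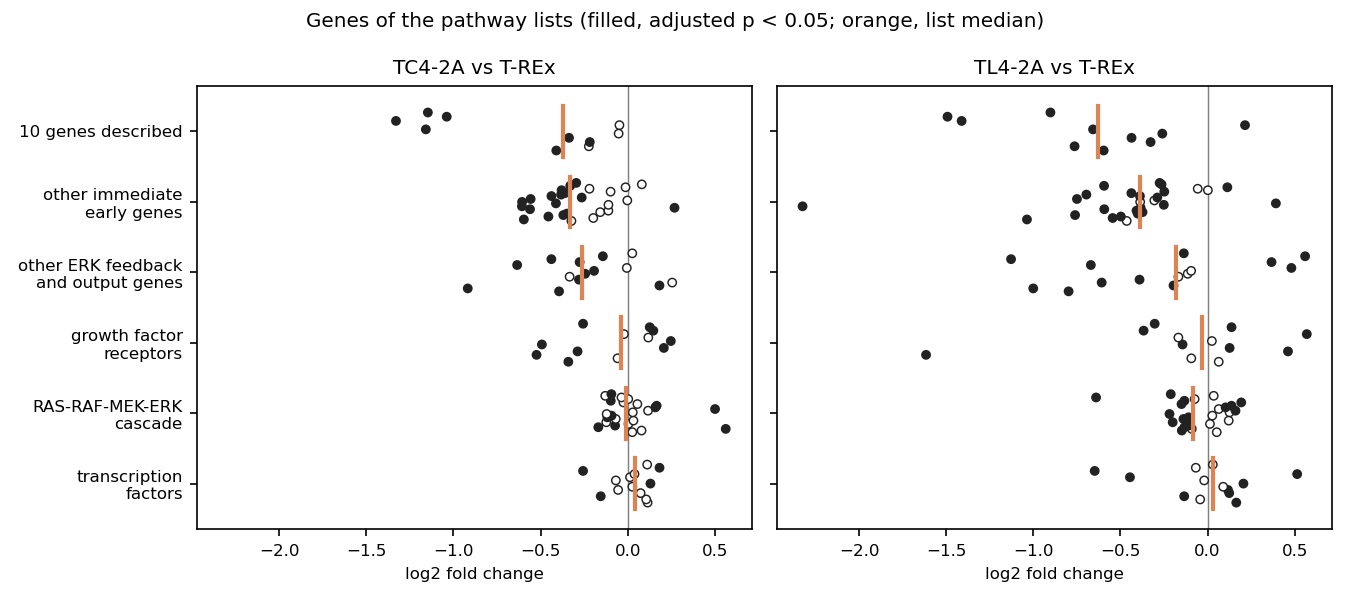
Log2 fold changes (x axis) of the tested genes of 6 lists (rows) in TC4-2A and TL4-2A cells against T-REx cells, 1 point per gene, filled where the edgeR adjusted p is under 0.05, with the list median in orange. The medians of the upper 3 rows lie between -0.18 and -0.63, and those of the receptors, the cascade and the transcription factors between -0.08 and 0.04.

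The genes of the signaling chain itself had medians nearer to 0. Among 12 growth factor receptor genes tested, 4 were higher and 5 lower with the circular RNA, and 4 were higher and 4 lower in the TL4-2A line, with medians of -0.04 and -0.03. ERBB3 fell from 25.4 ± 1.89 CPM to a mean of 17.7 ± 1.09 in TC4-2A and 8.29 ± 0.697 in the TL4-2A line (log2 fold changes -0.52 and -1.62, edgeR adjusted p = 1.28e-07 and 1.2e-18). FGFR2 fell in both lines (log2 fold changes -0.49 and -0.14). ERBB4 fell in TC4-2A and rose in the TL4-2A line (-0.29 and 0.46), and MET rose in TC4-2A and fell in the TL4-2A line (0.15 and -0.37). Of 24 genes from the adaptors to ERK and its target kinases, 4 were higher and 6 lower in the TC4-2A line and 4 higher and 11 lower in the TL4-2A line, with medians of -0.01 and -0.08. Of all genes 28.8% passed in TC4-2A and 44.3% in the TL4-2A line. BRAF, a RAF kinase, rose from 142 ± 2.72 to a mean of 201 ± 1.60 CPM in TC4-2A cells (log2 fold change 0.50, edgeR adjusted p = 3.05e-15) and had 148 ± 7.06 CPM in the TL4-2A line (edgeR adjusted p = 0.116). GAB1, a docking adaptor, rose in TC4-2A cells (log2 fold change 0.56, edgeR adjusted p = 1.8e-10) and had -0.09 in the TL4-2A line (edgeR adjusted p = 0.217). The paper describes chromosome stretches rich in genes raised in TC4-2A cells, and others rich in lowered genes. Neighbours of the receptor and cascade genes were not examined. The part of such stretches in the rises of BRAF, GAB1 and MET and in the fall of FGFR2 was therefore not tested. Of the ERK target kinases, RPS6KA1 fell in the TL4-2A line (log2 fold change -0.64, edgeR adjusted p = 2.17e-11) and had -0.04 in TC4-2A cells (edgeR adjusted p = 0.677), and RPS6KA3 fell in both (-0.09 and -0.21).

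Of 13 genes of transcription factors that act on these targets, 2 were higher and 2 lower in the TC4-2A line and 5 higher and 3 lower in the TL4-2A line. The 4 of 13 called in TC4-2A cells lay near the background of 28.8%, and 8 were called in the TL4-2A line beside 44.3%. CIC, the capicua repressor, rose from 85.4 ± 5.44 CPM to a mean of 93.4 ± 2.54 in TC4-2A and 98.4 ± 3.86 in the TL4-2A line (log2 fold changes 0.13 and 0.21, edgeR adjusted p = 0.0206 and 0.000202). ATXN1L, a partner that stabilizes capicua, had a change of 0.01 on the log2 scale in TC4-2A cells (edgeR adjusted p = 0.847) and fell in the TL4-2A line (-0.45, edgeR adjusted p = 4.25e-11). CREB1 rose in the TL4-2A line (log2 fold change 0.51) and had 0.04 in TC4-2A cells (edgeR adjusted p = 0.573), and ETS1 fell in both (-0.26 and -0.65). SRF, the CArG box factor, had log2 fold changes of 0.11 (edgeR adjusted p = 0.0545) and 0.16 (edgeR adjusted p = 0.00335).

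Immediate early genes also respond to handling, so heat shock genes were read beside them. Of 6 tested, 2 were higher and 1 lower in the TC4-2A line and 1 was higher and 2 lower in the TL4-2A line. Of all genes tested, 28.8% passed in TC4-2A and 44.3% in the TL4-2A line. The summed level was 582 to 613 CPM in T-REx, 666 to 681 in TC4-2A and 498 to 515 in the TL4-2A line. HSPA1B, which shares most of its sequence with HSPA1A so that reads may be split wrongly between the copies, rose in TC4-2A and fell in the TL4-2A line (log2 fold changes 0.32 and -0.56, edgeR adjusted p = 2.18e-11 and 7.27e-18). HSPA1A had log2 fold changes of 0.53 and -0.48 (edgeR adjusted p = 0.0465 and 0.101). BAG3 fell in both lines (-0.50 and -0.13), and HSPE1 rose in the TL4-2A line (0.47). Neighbours of the heat shock genes were not examined, and the part of chromosome stretches in their changes was not tested. The part of handling in the changes of the 10 genes was not tested.

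For each of the 10 genes the protein-coding gene with the most similar profile of log2 CPM over the 9 libraries was taken, among those averaging at least 1 log2 CPM. Pearson correlations with these genes ran from 0.961 to 0.998. They rest on 3 lines with shared libraries and are given as a description. SPRY4 was most like TENM1, a teneurin of neuronal cells on the X chromosome (r = 0.998), which was at 16.5 ± 1.52 CPM in T-REx and below 1 CPM on average in both derived lines. DUSP6 was most like WLS (r = 0.995), which encodes a carrier of Wnt proteins, with log2 fold changes of -0.22 and -0.11. JUN was closest to ATP1B1 (r = 0.992), a subunit of the sodium pump, with -0.40 and -0.68. SPRY2 was closest to RBM3 (r = 0.985), a cold-inducible RNA-binding protein, with log2 fold changes of -0.07 and 0.29. IER2 was nearest to RPS25 (r = 0.989), EGR1 to DR1 (r = 0.988), FOS to EMC6 (r = 0.975), FOSL1 to CNN2 (r = 0.961), ETV4 to SLC2A13 (r = 0.989) and ETV5 to MOSPD1 (r = 0.986). None of these 10 nearest genes belongs to the lists described above.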

How the data were processed

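The authors sequenced rRNA-depleted, strand-specific libraries from both ends, aligned the reads to GRCh38 with HISAT2, counted them per gene of Gencode v33 with featureCounts (Subread) and deposited the raw counts. Which versions and counting options they used is not given in the sources used here. Deposited comparisons (fold changes and p-values from DESeq2) were not used. Of the deposited counts, 60648 genes were read, and 3 damaged lines were skipped. Gencode v44 (GRCh38), which held 60462 of the gene IDs, gave names, positions and exon lengths.

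With edgeR 4.0.16 in R 4.3.3, genes passing filterByExpr were scaled by TMM and fitted in a single quasi-likelihood model of the 9 libraries, with 1 coefficient for each line. Tests were 2-sided, adjusted by Benjamini-Hochberg over 19473 genes and called under 0.05. Standard errors are the log2 fold change divided by the root of the F statistic. CPM use the TMM library sizes, and RPKM divide CPM by the union of annotated exons in kb. Groups follow the sample titles, since the cell line label reads T-REx for every sample. The columns of the deposited counts are named C, Circ and Lin with a replicate number, not by title, and were matched by that wording, C to the controls, Circ to TC4-2A and Lin to TL4-2A samples. Libraries of the same line differed by more than sampling noise, which cannot tell separate cultures from separate preparations. Each was kept as a replicate.

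The 10 genes and the lists were chosen with earlier results of these data known. Named are all 10 genes, in each list the 4 genes with the smallest p against T-REx cells, and for each of the 10 the most correlated gene. Relatives of the 10 genes, CCND1, SRF, SPRY4-AS1, ENSG00000274021, DHX8, DGKG, ENSG00000287296 and ENSG00000267598 were added with their values in view. The results were recomputed with DESeq2 1.42.0, with RLE scaling, without the filter, with genes of at least 10 counts in every library, with a model of only the pair of lines compared, with a block for the replicate number and without each library. Promoters were read from RefSeq tables of GRCh38.p14.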

Additional observations from a re-analysis of the deposited data

Results flagged for a closer look

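The change from T-REx cells differed between TC4-2A and TL4-2A cells, by the direct test, for 6 of the 10 genes, where 35.4% of all genes differed. On the log2 scale, TC4-2A minus TL4-2A was -0.50 for DUSP6, -0.26 for SPRY2 and -0.24 for ETV5, whose call held in only 4 of 15 alternatives. It was 0.45 for ETV4, 0.21 for IER2 and 0.11 for JUN. In all 3 libraries of each line the direction held without overlap except for ETV5.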

How the results depend on the processing

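Of 450 values of single genes under the 15 alternatives, 427 kept their direction and their side of the threshold, 21 were no longer past it, 1 passed newly and 1 turned its sign. The 21 belong to FOSL1 in TC4-2A cells, FOS in the TL4-2A line and ETV5 between the derived lines. The sign turned for FOSL1 between the derived lines, whose difference was -0.0302 without TC4-2A replicate 1 and ranged from -0.03 to 0.21 with 1 library left out. The genes called of the 10 numbered 6 to 7 in TC4-2A and 9 to 10 in the TL4-2A line, and 5 to 6 between the lines. Scaling by RLE moved the median of all genes by less than 0.1 on the log2 scale. Same-numbered libraries did not deviate together (correlations between -0.029 and 0.03). With the replicate number as a block, 7 and 10 of the 10 genes were called against T-REx cells and 5 between the lines, where ETV5 was lost (edgeR adjusted p = 0.0582), and no other call of the 10 genes changed. The median over the 10 genes of their neighbours' medians, -0.00199 in TC4-2A, -0.00085 in the TL4-2A line and 0.0198 between the lines, became -0.0135 without a filter and 0.0320 with at least 10 counts in the TL4-2A line, and 0.0336 without a filter and 0.00689 with only the 2 lines compared in the direct comparison. Leaving out 1 library gave -0.0149 to 0.0061 for TC4-2A against T-REx cells, -0.00708 to 0.0178 for TL4-2A against T-REx cells and -0.00879 to 0.0358 for the direct comparison. The cause was not tested. Depth limits FOS most, with 12 to 42 counts per library.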
